A study of Mus musculus with 4 samples.

Results

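Expression of the interferon-stimulated genes and RNA sensors was compared between MEL cells and ES-EP. The set was a list of 41 genes: the receptors of type I and type II interferon, the cytoplasmic nucleic acid sensors and their adaptor, transcription factors of the interferon response, and the antiviral genes that this response induces. Members were given by name and matched to the array by gene symbol. The rule for membership used no measured value, but the list was chosen with earlier results of these data known. Where a gene had several probe sets, the one with the highest mean signal over the 4 arrays stood for it. Of the 41 listed genes, 37 had a probe set of their own among the 19938 genes measured, 3 (Isg15, Igtp and Gbp2) lay only on probe sets shared with other genes, and 1 (Ifi44) was not in the gene table used here.

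MEL cells are a murine erythroleukemia line, and the cells used here (clone DS19) stably carried Gata-1 fused to the ligand-binding domain of the estrogen receptor (ER), so that every MEL value comes from 1 engineered clone. They grew in DMEM with 10% FBS and puromycin. ES-EP are untransformed erythroid progenitors made from mouse embryonic stem cells, grown in StemPro34 with Epogen, hIGF-1, dexamethasone and SCF. Both were harvested while proliferating, the labels name no interferon treatment, and cell type, medium and the fusion protein changed together, so their parts in any difference cannot be told apart. Each cell type gave 2 arrays, A and B, from duplicate cultures, read as log2 RMA signals on the Affymetrix Mouse Gene 1.0 ST array. The p-values therefore rest on 2 cultures of each line, with variances that limma moderated over all genes. They do not measure a gene's own spread alone, and the number of arrays limits the precision. Over all genes the arrays of a cell type correlated at r = 0.998 and the cell type means at r = 0.940 (genes are not independent replicates). In bulk RNA, fewer cells carrying a transcript and less of it per cell cannot be told apart.

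Interferons are secreted proteins by which infected cells warn their neighbors. Cytoplasmic sensors such as MDA5 (encoded by Ifih1) and RIG-I (Ddx58) recognize foreign RNA, signal through the mitochondrial adaptor MAVS to the factors IRF3 and IRF7, and so turn on the interferon genes. Type I interferon then binds the receptor made of IFNAR1 and IFNAR2, whose kinases activate STAT2. With IRF9, STAT2 acts at the interferon-stimulated response element in the promoters of antiviral genes, while the response to type II interferon acts at gamma-activated sequences.

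Matches to these elements were counted in the promoters of the members. Windows of 300 bases, 250 before and 50 after the annotated start, were taken from RefSeq (GRCm38.p6) for 35 of the 41 listed genes, which had 41 windows. The core of the response element, GAAANNGAA on either strand, was found in 18 of the 41 windows (43.9%), against 8.56% of 32851 promoter windows of the genome. The gamma-activated sequence TTCNNNGAA was found in 11 of 41 (26.8%, against 8.30%), and an ETS-IRF composite site GGAANNGAA in 4 of 41 (9.76%, against 8.24%). Matches to the core overlapped a gamma-activated match in 2 windows (Bst2 and Ifitm3) and a composite match in 3 (Igtp, Irf2 and Stat2). These are matches of letters in a window, not measured sites, and they were not tested.

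Of these, 6 windows are printed. Ifih1, Ifitm2 and Ifitm3 were higher in MEL, and Irgm1 and Stat2 were lower. Ifit1 was called lower too, but all its signals lay below the background level described further on. Each window is written 5′ to 3′ on the strand of its gene, with the matches to the response element core in capitals. The coordinates are those of GRCm38.p6: chr2:62646206-62646505 (minus strand) for Ifih1, chr7:140955912-140956211 (minus) for Ifitm2, chr7:141010695-141010994 (minus) for Ifitm3, chr11:48871371-48871670 (minus) for Irgm1, chr10:128270248-128270547 (plus) for Stat2 and chr19:34640639-34640938 (plus) for Ifit1.
Ifih1: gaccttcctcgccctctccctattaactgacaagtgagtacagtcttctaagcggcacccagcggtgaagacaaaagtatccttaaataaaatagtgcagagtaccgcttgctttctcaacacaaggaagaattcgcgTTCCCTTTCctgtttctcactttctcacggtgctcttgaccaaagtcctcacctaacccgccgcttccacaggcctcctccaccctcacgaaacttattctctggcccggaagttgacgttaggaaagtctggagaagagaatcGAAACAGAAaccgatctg
Ifitm2: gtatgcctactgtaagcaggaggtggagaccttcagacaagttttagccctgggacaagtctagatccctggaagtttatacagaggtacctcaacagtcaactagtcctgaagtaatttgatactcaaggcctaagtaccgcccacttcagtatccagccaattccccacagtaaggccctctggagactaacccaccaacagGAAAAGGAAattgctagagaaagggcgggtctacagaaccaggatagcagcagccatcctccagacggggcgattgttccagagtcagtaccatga
Ifitm3: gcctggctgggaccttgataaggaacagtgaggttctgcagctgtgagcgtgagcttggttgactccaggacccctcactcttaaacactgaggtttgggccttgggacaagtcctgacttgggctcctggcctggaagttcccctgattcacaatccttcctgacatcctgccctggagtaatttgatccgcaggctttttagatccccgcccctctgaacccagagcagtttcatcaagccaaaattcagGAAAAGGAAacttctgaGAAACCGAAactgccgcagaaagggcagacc
Irgm1: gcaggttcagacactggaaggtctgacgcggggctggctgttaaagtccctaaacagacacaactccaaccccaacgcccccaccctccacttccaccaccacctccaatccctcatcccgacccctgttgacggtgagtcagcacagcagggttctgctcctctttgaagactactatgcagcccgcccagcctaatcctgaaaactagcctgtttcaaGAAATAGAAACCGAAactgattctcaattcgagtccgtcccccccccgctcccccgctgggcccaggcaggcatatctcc
Stat2: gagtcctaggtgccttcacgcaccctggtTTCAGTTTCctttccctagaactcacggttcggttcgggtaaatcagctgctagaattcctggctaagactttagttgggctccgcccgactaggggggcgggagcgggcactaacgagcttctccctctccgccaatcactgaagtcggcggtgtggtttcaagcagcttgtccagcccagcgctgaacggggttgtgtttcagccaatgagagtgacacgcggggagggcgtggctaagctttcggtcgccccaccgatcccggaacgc
Ifit1: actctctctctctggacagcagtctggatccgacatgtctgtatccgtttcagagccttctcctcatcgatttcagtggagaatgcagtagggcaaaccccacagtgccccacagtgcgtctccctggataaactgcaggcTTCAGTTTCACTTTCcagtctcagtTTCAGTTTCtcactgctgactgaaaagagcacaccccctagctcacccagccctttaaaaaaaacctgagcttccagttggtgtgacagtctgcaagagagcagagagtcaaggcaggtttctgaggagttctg

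The Ifih1 window held 1 match that began 112 bases before the start and 1 at base 33 of the transcript. In Ifitm3 both matches lay just past the start, at bases 3 and 20, and in Ifitm2 the single match lay 46 bases before it. Irgm1 had overlapping matches 30 and 24 bases before the start, Stat2 had 1 match 221 bases before it, and Ifit1 had 3 matches, 109, 103 and 84 bases before it. The core was thus present on both sides of the comparison. Counted by gene, 18 of the 35 members with a window held it (51.4%), against 9.76% of 27025 genes. It was found in 6 of 10 members called higher in MEL that had a window, in 4 of 13 called lower and in 4 of 8 not called. The 4 listed genes that were not measured held it too. Of the 4 called lower, Ifit1 and Ifit3 lay at or below background in both cell types, and Irgm1 and Stat2 above it. Among members at least 2-fold different, no match was found in the windows of Irf5, Oasl1, Isg20, Ifi35 and Ifnar2.

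The set did not move as a block between leukemic and normal erythroid cells. A gene was called when the limma test gave a Benjamini-Hochberg adjusted p under 0.05 over all 19938 genes. Of the 37 measured members, 13 were called higher in MEL (35.1%, against 20.5% of all genes), 14 were called lower (37.8%, against 43.2% of all genes) and 10 were not called. At least 2-fold differences were found for 6 members higher in MEL (16.2%, against 5.72% of all genes), namely Ifitm3, Ifitm2, Ifih1, Irf5, Oasl1 and Isg20, and for 4 lower (10.8%, against 4.27%), namely Irgm1, Ifi35, Stat2 and Ifnar2. Both MEL arrays lay above both ES-EP arrays for 14 members (27.1% of all genes did so), both lay below for 17 (54.7% of all genes), and the arrays overlapped for 6. The median member difference, MEL minus ES-EP, was -0.07 on the log2 scale, beside -0.15 over all genes.

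As the files hold no detection calls, background was read from 1027 olfactory receptor genes, which red cell precursors are not known to use: the 95th percentile of their mean signals was 5.19 in MEL and 5.56 in ES-EP. By this level 24 members were above background in both cell types (64.9%, against 57.0% of all genes), 6 in MEL alone (16.2%, against 6.19%), 0 in ES-EP alone (2.57% of all genes), and 7 lay at or below it in both (18.9%, against 34.2% of all genes). These 7 were Zbp1, Ifit1, Ifit3, Mx1, Mx2, Gbp3 and Xaf1. The 6 above it in MEL alone were Ddx58, Dhx58, Irf7, Usp18, Oas2 and Ifitm3. As the level was lower in MEL, a gene with like signals in both cell types can fall in this class. Of these 6, 4 were called higher and 2 (Irf7 and Usp18) were not called. Of the 1234 genes in this class, 745 were called higher, 42 lower and 447 were not called. Among the olfactory receptor genes themselves 461 were called lower and 41 higher in MEL, with a median difference of -0.20, so a small negative difference at low signal was common on these arrays. Under 3 rescalings (quantile normalization, median centring and cyclic loess) the median over all genes moved from -0.15 to -0.03, -0.01 and 0.00, and the split of all calls from 4096 higher and 8622 lower to 5344 and 5974, 5757 and 5644, and 5676 and 5460. The members then split into 16 higher and 11 or 12 lower.

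**Figure D1:**
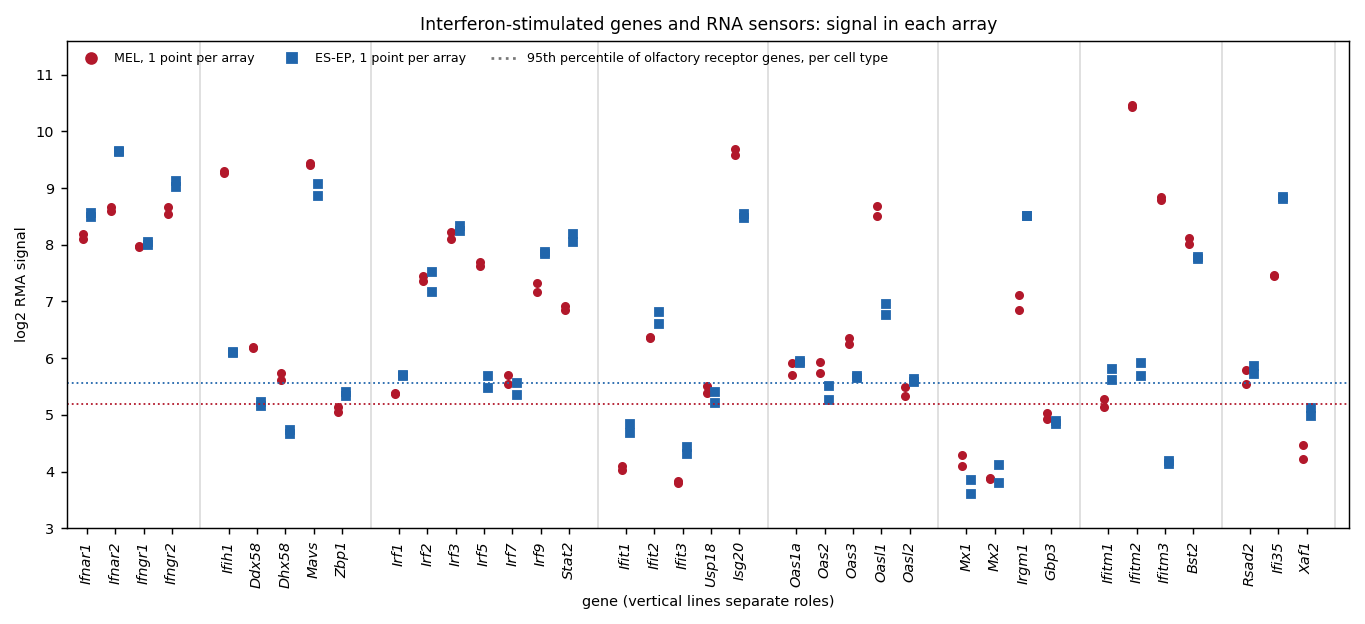
Signal of the 37 measured members in each array (vertical axis: log2 RMA signal; horizontal axis: genes grouped by role). Circles are the 2 MEL arrays, squares the 2 ES-EP arrays, and the dotted lines the olfactory receptor levels of 5.19 in MEL and 5.56 in ES-EP; the widest gaps are those of Ifitm2, Ifitm3, Ifih1 and Irf5, all with MEL above.

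Of the 4 interferon receptor chains 3 were lower in MEL and 1 was not called. This count and those of the other roles stand beside 20.5% of all genes called higher and 43.2% called lower. Ifnar2, the signaling chain of the type I receptor, read 8.67 and 8.60 in MEL A and B against 9.66 and 9.64 in ES-EP. It was 2.01-fold lower in MEL (log2 difference -1.01 ± 0.08 SE, limma adjusted p = 1.75e-06) and fell just short of 2-fold under the 3 rescalings. Its partner chain Ifnar1 (8.19 and 8.10 against 8.49 and 8.56) was 1.31-fold lower, with adjusted p = 0.00209. Both chains of the type I receptor thus had separate ranges in the 2 cell types. For the type II receptor, Ifngr2 (8.67 and 8.54 against 9.02 and 9.12) was 1.38-fold lower, whereas Ifngr1, the chain that binds the ligand, averaged 7.97 in MEL against 8.03 in ES-EP, with adjusted p = 0.584.

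Of the nucleic acid sensors and their adaptor, 4 of 5 were higher in MEL, beside 20.5% of all genes, and 1 was lower. Ifih1, which encodes MDA5, a sensor of long double-stranded RNA, read 9.31 and 9.27 in MEL A and B against 6.10 and 6.09 in ES-EP. The arrays of a cell type lay almost on top of each other, and the difference was 9.15-fold (3.19 ± 0.08, adjusted p = 1.53e-10). Ddx58, which encodes RIG-I, the sensor of RNA with a 5′ triphosphate, gave 6.20 and 6.17 against 5.24 and 5.15. Dhx58, whose product LGP2 modulates both sensors, gave 5.74 and 5.61 against 4.67 and 4.74. Both genes were higher in MEL by just under 2-fold (0.99 ± 0.08 and 0.97 ± 0.08) and passed 2-fold under the rescalings. Since their ES-EP signals lay at background, only a bound holds against the olfactory receptor level: Ddx58 was at least 1.55-fold and Dhx58 at least 1.08-fold higher. Mavs, the adaptor shared by MDA5 and RIG-I, was 1.37-fold higher (9.44 and 9.40 against 8.86 and 9.06, adjusted p = 0.00134). Zbp1, a sensor of Z-form nucleic acid, was at background in both cell types (5.05 and 5.14 against 5.34 and 5.40), and its call as lower was lost under all 3 rescalings.

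Among the 7 IRF and STAT factors 1 was higher in MEL, 3 were lower and 3 were not called. Irf5, which relays Toll-like receptor signals and is known from macrophages and B cells, read 7.70 and 7.63 in MEL against 5.47 and 5.69 in ES-EP. It was 4.24-fold higher in MEL (2.08 ± 0.09, adjusted p = 1.66e-08), with ES-EP close to the background level. Stat2 and Irf9, whose products act together in the type I response, moved the other way. Stat2 gave 6.85 and 6.93 in MEL against 8.06 and 8.20 in ES-EP, a 2.36-fold lower signal (-1.24 ± 0.09, adjusted p = 6.04e-07), and Irf9 (7.32 and 7.16 against 7.84 and 7.86) was 1.53-fold lower.

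The factors that switch on the interferon genes were not called: Irf3 differed by -0.11 (adjusted p = 0.277) and Irf7 by 0.17 (adjusted p = 0.156), though Irf7 was called higher under each of the 3 rescalings. Irf2, which mostly restrains the response, differed by 0.06 (adjusted p = 0.639). Irf1, an activator of many interferon-stimulated genes, had a pair of probe sets that disagreed. The brighter one read 5.38 and 5.39 in MEL against 5.69 and 5.71 in ES-EP and was called lower, and the other read 5.76 and 5.71 against 5.12 and 5.07 and lay 0.64 higher (adjusted p = 0.00361 in the fit over all probe sets), or at least 1.13-fold against the ES-EP background level. No direction can be given for Irf1, and its call as lower was also lost under all 3 rescalings.

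The IFIT proteins bind viral RNA that lacks the host cap, and their 3 measured genes were called lower in MEL, as were 43.2% of all genes. Ifit1 gave 4.03 and 4.10 against 4.84 and 4.67, and Ifit3 gave 3.84 and 3.81 against 4.32 and 4.43. All 8 of these signals lay below the background level, where a difference cannot be read as expression. Ifit2 was above it, at 6.36 and 6.38 against 6.60 and 6.82 (-0.34 ± 0.09, adjusted p = 0.00855), and its call was lost under median centring, under cyclic loess, and without MEL A (adjusted p = 0.0648), MEL B (0.0574) or ES-EP B (0.0638). Isg20, a nuclease that degrades single-stranded RNA, went the other way: 9.68 and 9.58 in MEL against 8.46 and 8.53 in ES-EP, or 2.19-fold higher in MEL (1.13 ± 0.08, adjusted p = 9.87e-07). Usp18, which removes ISG15 from proteins and dampens the type I receptor, differed by 0.14 (adjusted p = 0.197) and was called higher under the 3 rescalings.

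In the OAS family 3 of 5 members were higher in MEL, beside 20.5% of all genes, and 2 were not called. OAS enzymes make 2′-5′-linked oligoadenylate on double-stranded RNA, which activates RNase L. Oasl1, a family member without that activity that restrains Irf7 translation, read 8.69 and 8.51 in MEL against 6.96 and 6.75 in ES-EP. It was 3.35-fold higher in MEL (1.75 ± 0.10, adjusted p = 1.14e-07), whereas its neighbor on chromosome 5, Oasl2, gave 5.42 on average in MEL against 5.60 in ES-EP (adjusted p = 0.0832). Oas3 (6.25 and 6.35 against 5.64 and 5.69) was 1.55-fold higher, and Oas2 (5.94 and 5.73 against 5.52 and 5.26) was 1.36-fold higher, or at least 1.21-fold against the ES-EP background level. The Oas2 call was lost without MEL A (adjusted p = 0.0669). Oas1a differed by -0.13 (adjusted p = 0.258), and since it belongs to a tight cluster of near-identical Oas1 genes its signal may be shared with them.

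The interferon-inducible GTPases gave 1 member higher in MEL, 1 lower and 2 not called. Irgm1, which controls the other immunity-related GTPases and autophagy and is known for its part in blood stem cell maintenance, gave 6.84 and 7.12 in MEL against 8.50 and 8.51 in ES-EP. This was 2.87-fold lower in MEL (-1.52 ± 0.10, adjusted p = 3.65e-07), the widest negative difference among the members. Mx1, a GTPase that blocks influenza virus in the nucleus, lay below background in every array (4.10 and 4.29 against 3.61 and 3.84), so its call as higher (0.47 ± 0.10, adjusted p = 0.00262) says nothing about expression, and it was lost without MEL B (adjusted p = 0.0510). Mx2 (-0.07, adjusted p = 0.570) and Gbp3 (0.11, adjusted p = 0.260) were at background too, and Gbp3 was called higher under the 3 rescalings.

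The membrane restriction factors gave the widest differences of the whole set. IFITM proteins sit in endosomal membranes and hinder virus entry. Ifitm3 read 8.79 and 8.84 in MEL A and B against 4.14 and 4.18 in ES-EP, where it was below background. The measured difference was 25.2-fold (4.65 ± 0.08, adjusted p = 1.78e-11), and against the olfactory receptor level in ES-EP it was at least 9.55-fold. Ifitm2 read 10.46 and 10.43 in MEL against 5.68 and 5.92 in ES-EP, a log2 difference of 4.64 ± 0.09 (adjusted p = 4.07e-11). A further pair of Ifitm2 probe sets pointed the same way. Their ES-EP means lay below background, so only bounds hold, of at least 18.1-fold and 21.7-fold.

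Ifitm1, whose gene lies between these, gave the opposite call. It read 5.13 and 5.29 in MEL against 5.80 and 5.61 in ES-EP, close to background in both (-0.50 ± 0.10, adjusted p = 0.00112). Its second probe set read 5.41 and 5.27 against 5.25 and 5.08 (0.17, adjusted p = 0.223 in the fit over all probe sets), and the mean of both was not called (adjusted p = 0.133). The Ifitm genes are similar in sequence, so that signal of one may reach the probes of another. Bst2, which encodes tetherin and holds budding virus on the cell surface, was 1.23-fold higher in MEL (8.12 and 8.02 against 7.78 and 7.76, adjusted p = 0.00899), a call that was lost without MEL A (adjusted p = 0.0783).

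**Figure D2:**
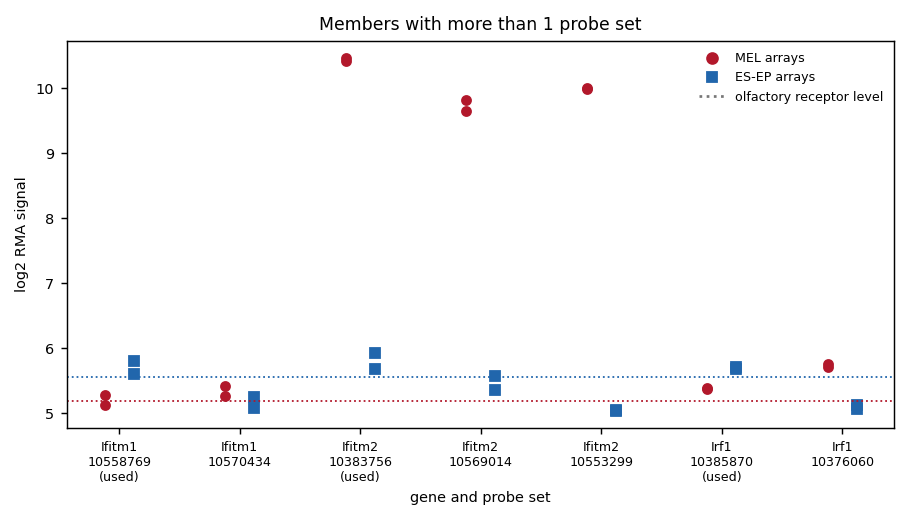
Members with more than 1 probe set (horizontal axis: gene and probe set; vertical axis: log2 RMA signal). Circles are MEL arrays, squares ES-EP arrays and dotted lines the olfactory receptor levels; the 3 Ifitm2 probe sets all place MEL above ES-EP, by 4.64 for the one used and, with ES-EP below background, by at least 4.18 and 4.44 for the others, while those of Irf1 place MEL lower by the first (-0.31) and higher by the second (0.64).

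Of the remaining members, Ifi35, a leucine zipper protein that regulates innate signaling, was 2.58-fold lower in MEL. It gave 7.45 and 7.46 in MEL against 8.84 and 8.81 in ES-EP (-1.37 ± 0.08, adjusted p = 1.27e-07), with no overlap. Xaf1, an antagonist of the apoptosis inhibitor XIAP, was 1.63-fold lower but lay below background throughout (4.22 and 4.46 against 5.11 and 4.98). Rsad2, which encodes viperin, an enzyme that makes a chain-terminating nucleotide, differed by -0.13 (adjusted p = 0.279), and its arrays overlapped.

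**Figure D3:**
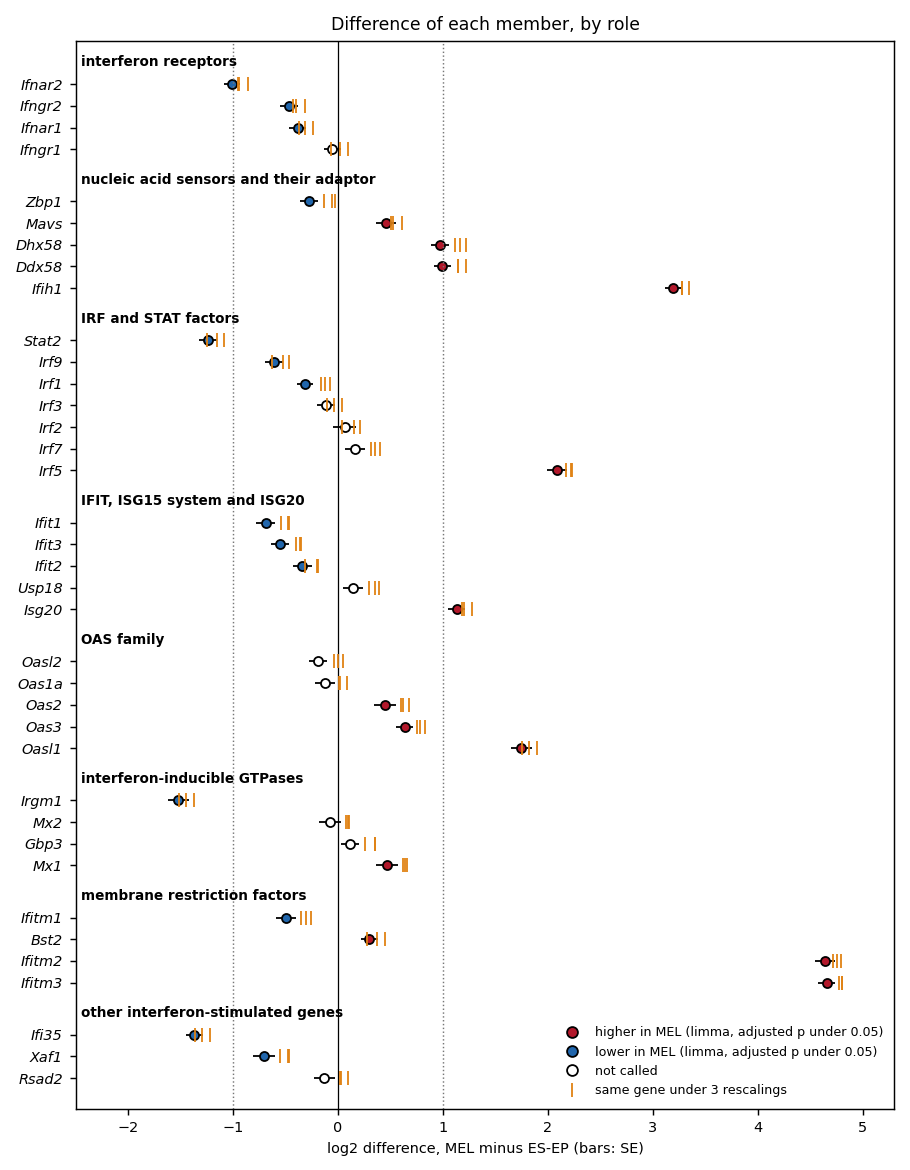
Each member's difference by role, as log2 signal in MEL minus that in ES-EP (points: limma estimate; bars: SE; colored ticks: the same gene under 3 rescalings; dotted lines: 2-fold). Filled points passed an adjusted p of 0.05: 13 lie to the right of 0 and 14 to the left, and the receptors are on the left while 4 of 5 sensors are on the right. Of all genes 20.5% were called higher and 43.2% lower.

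Members often lie side by side in the genome, and neighbors did not always move alike. Ifnar2, Il10rb, Ifnar1 and Ifngr2 are consecutive measured genes on chromosome 16, and all 4 were lower in MEL. Il10rb, the shared chain of the interleukin 10 and interferon lambda receptors, which is not a member, showed the widest difference there (-1.57 ± 0.08, adjusted p = 5.37e-08). The next gene past Ifngr2, Tmem50b, was higher by 0.84, but Dnajc28 (-1.01) and Gart (-0.21) beyond it were again called lower. Olig1 on the other side was not called (-0.16). On chromosome 7 the Ifitm genes gave 4.64 for Ifitm2, -0.50 for Ifitm1 and 4.65 for Ifitm3, with Ifitm5 (0.24, not called) on one side and Ifitm6 (-0.23, a call lost under the 3 rescalings) on the other. The gene beyond Ifitm6, B4galnt4, a glycosyltransferase with no listed part in the interferon response, read 7.13 on average in MEL against 4.89 in ES-EP, below background there. On chromosome 19 the 5 consecutive Ifit genes lay between -0.69 (Ifit1) and -0.12 (Ifit3b). Of these, 4 were called lower (Ifit3b was not), as were the 3 flanking genes on each side and 43.2% of all genes. Only Ifit2 and the flanking genes Lipa and Pank1 lay above background here.

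**Figure D4:**
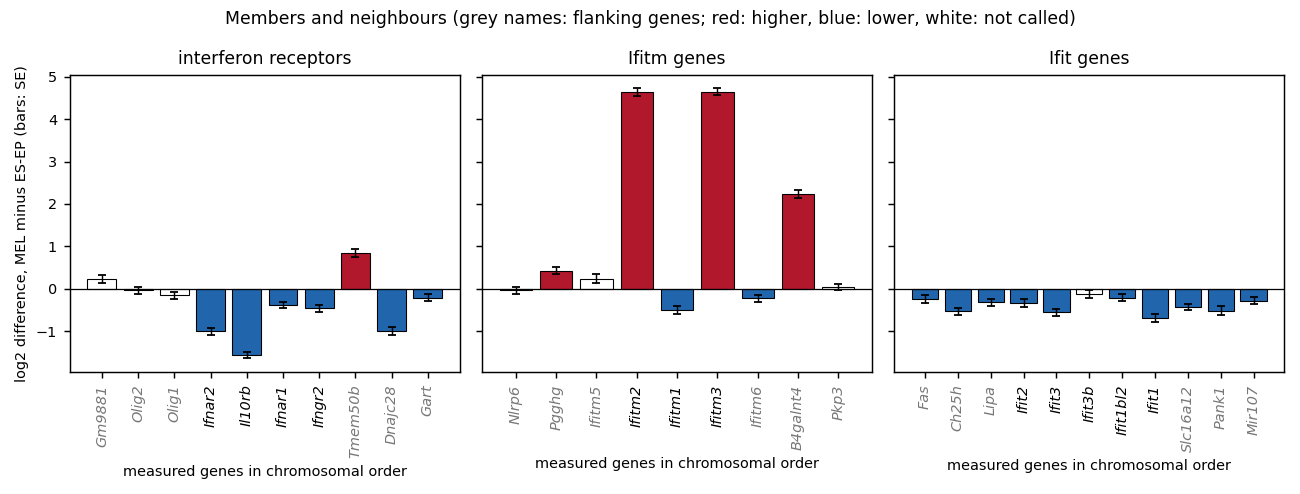
Log2 differences (bars, with SE) of the receptor genes on chromosome 16, the Ifitm genes on chromosome 7 and the Ifit genes on chromosome 19 with the 3 measured genes on either side, in chromosomal order. Red bars are called higher in MEL, blue lower and white not called; the receptor genes share a sign, while Ifitm1 lies at -0.50 between genes at 4.64 and 4.65. Of the chromosome 19 genes only Ifit2, Lipa and Pank1 lay above background.

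The rest of the pathway was read from a list of 102 other genes, of which 86 were measured. Of these, 26 were called higher in MEL (30.2%, against 20.5% of all genes) and 34 lower (39.5%, against 43.2%). The other 26 were not called, and the median difference was -0.05, beside -0.15 over all genes. At least 2-fold differences were found for 17 higher (19.8%, against 5.72% of all genes) and 6 lower (6.98%, against 4.27%). Under each of the 3 rescalings the counts were 18 and 4, since Jak1 and Tbk1 then fell short of 2-fold. Of the 17, 14 belonged to the 37 other interferon-stimulated genes on the list. Of 16 measured genes of the interferons themselves, 2 were called higher and 8 lower, beside 20.5% and 43.2% of all genes. In both cell types 8 of the 16 lay at or below background, and the near-identical Ifna genes may share signal. Ifnb1, which encodes interferon beta, read 4.25 and 3.99 in MEL against 4.05 and 3.98 in ES-EP, all below background (adjusted p = 0.379). Of the lower ligand genes 1 passed 2-fold, Ifne (4.93 and 4.90 against 6.14 and 6.34, or at least 2.06-fold against the MEL background level).

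Downstream of the receptors, Jak1, the kinase bound to IFNAR2, was 2.05-fold lower in MEL (9.72 and 9.65 against 10.62 and 10.81, adjusted p = 3.68e-06). Tyk2, the kinase bound to IFNAR1, differed by 0.06 (adjusted p = 0.524) and was called higher under median centring (0.21, adjusted p = 0.0366). Tbk1, the kinase that phosphorylates IRF3, was 2.05-fold lower (8.34 and 8.33 against 9.36 and 9.37, adjusted p = 1.25e-06). Sting1, the adaptor of the cytoplasmic DNA sensor, differed by -0.55 but lay at or below background in both cell types, and Unc93b1, which escorts nucleic acid-sensing Toll-like receptors to endosomes, was higher (6.65 and 6.49 against 4.57 and 4.71), by at least 2.02-fold against the ES-EP background level.

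The widest positive differences among the other interferon-stimulated genes were those of Tdrd7, a tudor protein that inhibits autophagy-dependent virus replication (3.02 ± 0.08, adjusted p = 4.32e-10), Herc6, the main ligase for ISG15 in the mouse (2.82), and Dtx3l, a ubiquitin ligase (2.66). They were followed by Ifi27 (2.53), Parp12 (2.46), Rnf213 (2.26) and Sp100 (1.81). The 7 genes just named were at or below background in ES-EP and above it in MEL, where Tdrd7 read 7.85 and 7.77 against 4.86 and 4.71 in ES-EP. Against the ES-EP background level they were higher by at least 1.46-fold (Sp100) to 4.75-fold (Tdrd7). The 2 genes at least 2-fold lower were Slfn2, a member of the schlafen family (at least 2.25-fold against the MEL background level), and Ube2l6, the enzyme that conjugates ISG15 (-1.37; 8.47 and 8.51 in MEL against 9.84 and 9.88 in ES-EP). Herc6 and Ube2l6, which act in the same ISG15 conjugation pathway, thus had opposite calls.

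**Figure D5:**
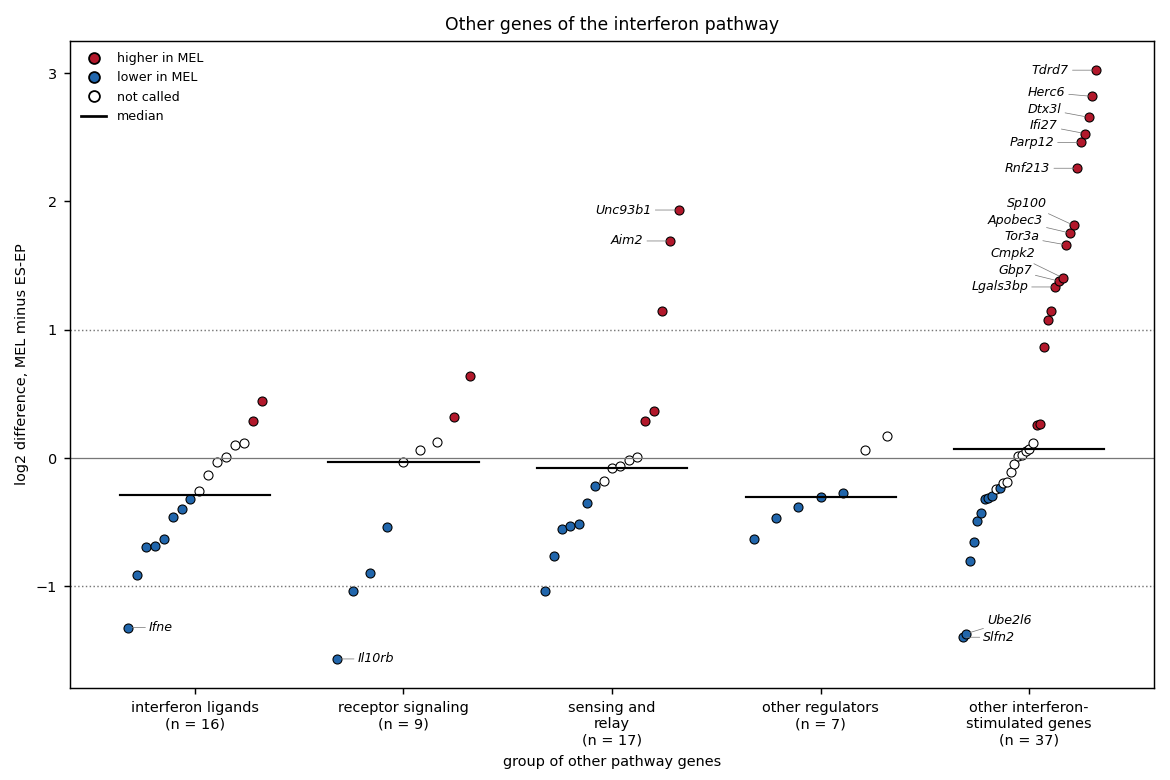
Log2 differences of the 86 other measured pathway genes in 5 groups (points: genes, ordered by value within a group; lines: group medians; dotted lines: 2-fold). The 14 genes more than 2-fold higher among the 37 other interferon-stimulated genes reach 3.02, and the ligands center on -0.29.

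Erythroid markers were present in both cell types, most of them at a lower signal in MEL. The 11 measured erythroid markers were above background in both, with summed linear signals of 17100 and 16500 in MEL against 25900 and 27400 in ES-EP. Of these 11 markers 2 were called higher in MEL, 8 lower and 1 was not called. Among all genes 20.5% were called higher and 43.2% lower. The lower ones included genes of red cell maturation: Slc4a1, the anion exchanger (-5.47), Epb42, a membrane skeleton protein (-3.22), Alas2, which starts heme synthesis (-3.12), and Hemgn (-1.33), while the higher ones were Gata1 (1.14) and Nfe2 (0.22). Several interferon-stimulated genes are known from macrophages, and markers of other blood cells were read as well. Of 10 macrophage and monocyte markers, 2 were higher in MEL, 3 were lower and 5 were not called, no more than the shares of all genes. The higher ones were Ccr2 (by at least 4.26-fold) and Fcgr1 (by at least 2.78-fold against the ES-EP background level). The sum was 645 and 644 in MEL against 388 and 393 in ES-EP. Of the 10 markers, Adgre1, Lyz2, Itgam, Cd14 and Mrc1 were at or below background in both cell types, and Cd68 was above it in both. Csf1r was above it in ES-EP alone, and Ccr2, Fcgr1 and Marco were above it in MEL alone. Marco passed only because the level was lower in MEL. Its signal was lower there (5.27 on average against 5.53, limma adjusted p = 0.0181), a call that was lost under the 3 rescalings.

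All 4 megakaryocyte markers were called higher in MEL, beside 20.5% of all genes. Pf4 was higher by at least 9.77-fold against the ES-EP background level and Itga2b by 2.30 on the log2 scale. The sums were 1190 and 1090 against 231 and 231, although Ppbp lay at or below background in both cell types. Of 8 mast cell and basophil markers 7 were called lower in MEL (402 and 377 against 3520 and 3260), beside 43.2% of all genes. Ms4a2 was at least 58.0-fold lower against the MEL background level. Ms4a2 had the highest ES-EP signal of them (11.15 and 10.96), while Fcer1a, Cpa3, Mcpt8 and Cma1 lay at or below background in both cell types. Of 6 dendritic cell markers 5 were called lower (184 and 186 against 294 and 305), beside the same 43.2%, and 4 of the 6 lay at or below background in both. Of 7 lymphocyte markers 3 were called lower (215 and 196 against 271 and 255), near the share of all genes, and 4 of the 7 lay at or below background in both. Fibroblast markers summed to 523 and 501 against 555 and 513. Of these 8, 2 were higher and 5 lower, beside 20.5% and 43.2% of all genes, and 3 lay at or below background in both. Embryonic stem cell markers summed to 200 and 197 against 255 and 245, with 6 of 8 at or below background in both. The part of these other programs in the differences of the interferon genes was not tested.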

How the data were processed

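Total RNA from 2 MEL and 2 ES-EP cultures was hybridized to Affymetrix Mouse Gene 1.0 ST arrays. The authors normalized the scans by RMA in GeneSpring GX and deposited log2 signals of 35557 probe sets, 1 column per array. Array medians over these probe sets still ranged from 5.67 to 5.84, lower in MEL, and the values carry no measure of total RNA per cell. The build named in the labels was mm9, and the table holds no coordinates. Probe sets were named from the platform annotation: 21789 had 1 symbol, 1621 several and 12147 none. The probe set with the highest mean stood for each gene. MEL and ES-EP were compared in R 4.3.3 by a linear model of limma 3.58.1 with group as its term and moderated variances (residual degrees of freedom 2, prior 8.20), with Benjamini-Hochberg adjustment at 0.05 over 19938 genes. An exact permutation test of 2 against 2 arrays cannot go below p = 0.333 (two-sided), so no single-gene permutation is given.

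The members and lists were chosen with earlier results of these data known. Every member is named. Of the other pathway genes, the rule named up to 8 in each direction among called differences of at least 2-fold, plus Jak1, Tyk2, Tbk1 and Sting1, and 1 further gene that is not reported here. Motif shares were read from RefSeq promoter windows (GRCm38.p6), and protein sequences were not analysed here. The fit was tested on simulated data. The 15 alternatives were 3 rescalings, 2 filters on low signal, averaged probe sets, a fit of every probe set, blocking on the array letter, robust variances with a trend, adjustment by Holm, testing against 1.2-fold (treat), and dropping each array in turn. Tables used pandas 2.3.3 and numpy 2.4.6 in Python 3.11.15, and plots used matplotlib 3.10.9.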

Additional observations from a re-analysis of the deposited data

How the results depend on the processing

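Of the 27 members called, 24 kept their call and direction under the 3 rescalings and 12 under every alternative that tested them. The 13 higher and 14 lower members became 8 and 8 with the filter at the median signal, which tested 19 of 37 members. Of the 9969 genes tested there, 3241 were called higher and 3876 lower. Holm's adjustment gave 8 and 4 members, beside 1484 and 1353 of 19938 genes. Testing against a 1.2-fold difference gave 9 and 8 members, beside 2488 and 3903 of 19938 genes. The other pathway genes, 26 higher and 34 lower, became 15 and 14 with the filter at the median signal, 18 and 9 with Holm's adjustment and 19 and 20 against a 1.2-fold difference. The median member difference turned from -0.07 to 0.0289 (quantile normalization), 0.0767 (median centring), 0.0921 (cyclic loess) and 0.0056 (filter at the 25th percentile). Irf1 reversed to 0.17 (adjusted p = 0.0860) with the mean of its probe sets. Leaving out each array gave 11 to 13 members higher, 12 to 14 lower, 6 to 8 at least 2-fold higher, 3 to 4 at least 2-fold lower, a median of -0.10 to -0.04, and 22 to 25 pathway genes higher and 29 to 34 lower. Where a group held 1 array, it was assumed to vary like the other group. The letters A and B are only names: deviations of arrays with the same letter correlated at r = -0.04, and the replicate block gave the same member counts (13 higher, 14 lower, 6 and 4 at least 2-fold) and 26 and 35 pathway genes. Signals at background limit what can be said of 13 members in at least 1 cell type, and only 2 arrays per cell type stand behind each value.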

Other observations

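Several other pathway genes, chosen here after their values were seen, differed in ways not described above. Apobec3, a deaminase that restricts retroviruses, read 8.29 and 8.20 in MEL against 6.47 and 6.51 in ES-EP (3.37-fold higher, limma adjusted p = 2.17e-08). Aim2, a sensor of cytoplasmic DNA, was at least 2.08-fold higher against the ES-EP background level, and Ikbke, a kinase related to Tbk1, was higher by 1.14 where Tbk1 was lower. Gbp7, a guanylate-binding GTPase, gave 8.29 and 8.28 against 6.73 and 7.08 (2.60-fold higher), whereas Gbp4 and Gbp5 lay at or below background in both cell types. Parp14, Dtx3l and Parp9, which are consecutive on chromosome 16, were all higher in MEL, by at least 2.00-fold, 3.66-fold and 1.42-fold against the ES-EP background level, and their neighbors Hspbap1 (-0.28) and Kpna1 (-0.11, not called) were not.

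Of the other ligand and receptor genes, Ifng was called lower in MEL (-0.39) with every array below background, a call that was lost under all 3 rescalings (adjusted p = 0.219, 0.0643 and 0.196). Socs1, the inhibitor of JAK kinases, was 1.86-fold lower in MEL (6.50 and 6.54 against 7.33 and 7.51), Myd88 was 1.69-fold lower, and Jak2, the kinase of the erythropoietin receptor and of the type II interferon receptor, was 1.55-fold higher (10.72 and 10.72 against 10.01 and 10.16).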
